A study of Mus musculus with 12 samples.

Results

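The 30 genes described here are p53 itself, proteins that control it, and genes listed as p53 targets. They were taken from a written list and looked up by gene symbol on whole-transcript microarrays of mouse thymocytes and T cell lymphomas. Whether p53 controls each listed target in these cells was not tested. Of the 30, 29 had a row of their own among the 19938 genes with one, and 27 were bright enough to be tested, among 14953 genes in all. The row of Trp53, the p53 gene, was not analysed here, and Fas and Eda2r were too dim to be tested. The 12 arrays comprised 3 of DN3 thymocytes from wild-type C57/BL6 mice, 3 of DN3 thymocytes from TCF-1 KO mice of that strain, and 6 of blasts of T cell lymphoma sorted from the thymus of TCF-1 KO mice. DN3 cells are early thymocytes without CD4 or CD8 in which the beta chain of the T cell receptor is being assembled, and TCF-1 is a transcription factor of the early T cell lineage. DN3 donors were 8 to 12 weeks old and lymphoma-bearing mice 12 to 40 weeks. Lymphomas and TCF-1 KO DN3 cells thus share the deletion, while lymphomas differ from both DN3 groups in age.

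The transcription factor p53 is kept low in unstressed cells by Mdm2, a ubiquitin ligase, and by its relative Mdm4. Damaged DNA or an active oncogene frees p53, which then raises genes of cell cycle arrest, DNA repair, stress control and cell death, and also raises Mdm2, which closes a feedback loop. In the thymus p53 is known for removing thymocytes with unrepaired DNA breaks, and mice without it commonly develop thymic lymphoma. The values used here are RNA signals alone, so neither the p53 protein nor mutations in its gene were measured.

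p53 binds DNA as a tetramer, at pairs of a decamer made of purines, a central C and G around A or T letters, and pyrimidines. RefSeq promoters (build GRCm38.p6, 250 bases before to 50 after a gene start) were found for 23 of the 30 members, 27 promoters in all. Among the 7 members without one were Zmat3 and Trp53inp1. The p53 half-site decamer, whose letter code reads alike on both strands, stood in 11 of the 27 member promoters (40.7%), against 2745 of 32851 promoters in all (8.36%). By gene, 10 of 23 members (43.5%) held it, against 2582 of 27025 genes (9.55%). A pair of decamers at most 13 bases apart stood in no member promoter and in 24 promoters in all (0.0731%). Both Aen promoters hold the same decamer, since they overlap. The 250 bases before the start follow, 5′ to 3′, for the 4 called members with a promoter (Ei24, Polk, Sesn1, Sesn3), and for Mdm2 and Ccng1, widely used readouts of p53. Polk and Sesn1 have a further start each, without a decamer. Capitals mark the decamer.
Ei24 (chr9:36797335-36797584, minus strand): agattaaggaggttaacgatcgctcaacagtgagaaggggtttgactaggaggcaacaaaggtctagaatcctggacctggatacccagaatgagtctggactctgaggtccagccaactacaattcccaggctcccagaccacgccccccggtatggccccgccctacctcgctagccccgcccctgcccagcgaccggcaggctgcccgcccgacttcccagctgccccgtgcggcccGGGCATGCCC
Polk, inner start (chr13:96519188-96519437, minus strand): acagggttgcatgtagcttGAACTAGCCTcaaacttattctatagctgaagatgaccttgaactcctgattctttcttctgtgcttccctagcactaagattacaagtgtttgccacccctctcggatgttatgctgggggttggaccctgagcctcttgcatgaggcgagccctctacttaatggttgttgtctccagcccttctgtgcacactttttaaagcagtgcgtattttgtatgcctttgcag
Sesn1, second start (chr10:41887189-41887438, plus strand): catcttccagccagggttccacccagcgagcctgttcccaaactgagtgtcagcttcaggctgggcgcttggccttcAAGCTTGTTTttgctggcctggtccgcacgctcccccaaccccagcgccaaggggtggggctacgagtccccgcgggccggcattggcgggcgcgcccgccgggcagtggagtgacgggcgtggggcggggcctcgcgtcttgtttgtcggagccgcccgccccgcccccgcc
Sesn3 (chr9:14276051-14276300, plus strand): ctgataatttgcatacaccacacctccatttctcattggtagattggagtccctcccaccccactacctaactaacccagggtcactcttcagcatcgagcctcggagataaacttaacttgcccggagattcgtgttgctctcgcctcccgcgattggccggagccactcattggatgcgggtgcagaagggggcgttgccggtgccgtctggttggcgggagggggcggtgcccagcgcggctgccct
Mdm2 (chr10:117710759-117711008, minus strand): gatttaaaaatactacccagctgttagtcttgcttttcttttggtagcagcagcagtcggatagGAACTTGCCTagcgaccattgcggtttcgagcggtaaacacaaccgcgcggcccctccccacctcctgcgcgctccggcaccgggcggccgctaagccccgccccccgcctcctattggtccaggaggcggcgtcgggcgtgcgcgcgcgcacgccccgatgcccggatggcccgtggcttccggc
Ccng1 (chr11:40755287-40755536, minus strand): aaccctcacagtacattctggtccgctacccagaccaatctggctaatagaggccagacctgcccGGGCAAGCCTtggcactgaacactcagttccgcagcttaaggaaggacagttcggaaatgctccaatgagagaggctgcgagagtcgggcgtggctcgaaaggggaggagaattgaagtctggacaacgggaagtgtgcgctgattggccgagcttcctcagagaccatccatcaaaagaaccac
The decamer began at position -10 from the gene start in Ei24, -231 in Polk, -173 in Sesn1, -186 in Mdm2 and -185 in Ccng1. Sesn3 had none in this window. A match is a string of letters and says nothing of binding in these cells.

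The labels' cell types were checked against marker genes. The mean log2 signal of 12 T-lineage markers lay between 8.83 and 9.10 on the DN3 arrays and between 8.47 and 8.90 on the lymphoma arrays, and that of 7 B cell markers between 4.65 and 5.01 on all arrays, near the limit of 4.78 under which genes were left out. Within the T-lineage list Rag1 (-1.92), Rag2 (-1.39), Dntt (-0.94) and Cd3g (-0.35) were called lower and Gata3 (0.75) higher in lymphomas than in wild-type DN3 cells, Rag1 (-1.62) and Ptcra (-0.64) lower and Gata3 (0.89) and Cd3e (0.59) higher than in TCF-1 KO DN3 cells, and Dntt (-0.69) lower in TCF-1 KO than in wild-type DN3 cells. The part of these differences in the results was not tested. The mean of 11 NK and innate lymphoid markers was 5.33 to 5.47 on wild-type arrays and 5.52 to 5.73 on TCF-1 KO DN3 arrays. On lymphoma arrays it was 5.38 to 5.58. Of these markers Gzma was called higher in TCF-1 KO DN3 cells and lymphomas than in wild-type cells. Il2rb was called higher and Nkg7 lower in lymphomas than in both DN3 groups. Cd79b of the B cell list and the thymic stroma marker Epcam were called lower in lymphomas than in both. Of other stroma markers, Foxn1 was lower and Pecam1 higher than in TCF-1 KO DN3 cells. The part of all these markers in the results was not tested. On 34 unnamed rows the signals split the arrays into a smaller set (replicate 1 of both DN3 groups and lymphomas 1 and 2) and a larger set of 8 arrays. The labels do not name this split, and differences within each set are given below. Xist, RNA of the inactive X chromosome, was low on TCF-1 KO DN3 replicate 3 and lymphomas 1, 2 and 6 and high on the other 8 arrays. Median signals of the arrays lay between 5.30 and 5.39, and the number of arrays limits the precision. In bulk RNA, fewer cells of a type and less RNA per cell cannot be told apart.

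In lymphomas against TCF-1 KO DN3 cells, Ei24, Zmat3, Trp53inp1 and Polk of 27 members were called higher, against 4.5% of all genes. No member was called lower, against 2.12% of all genes. Against wild-type DN3 cells, Sesn3, Zmat3 and Trp53inp1 were called higher (2.96% of all genes) and Sesn1 lower (2.86%). Mdm2, the feedback target, had nearly the same mean in lymphomas as in wild-type cells. Between both DN3 groups no member was called, against 1.99% of all genes. With the replicate number as a block 6 of 27 members were called, against 9.23% of all genes, Ei24 and Sesn1 with the lowest p-values. The labels give these numbers without naming a pairing. A gene was called at a limma adjusted p under 0.05, adjusted over all 14953 genes (Benjamini-Hochberg). All 3 comparisons share arrays pairwise, so they are not independent of each other.

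**Figure D1:**
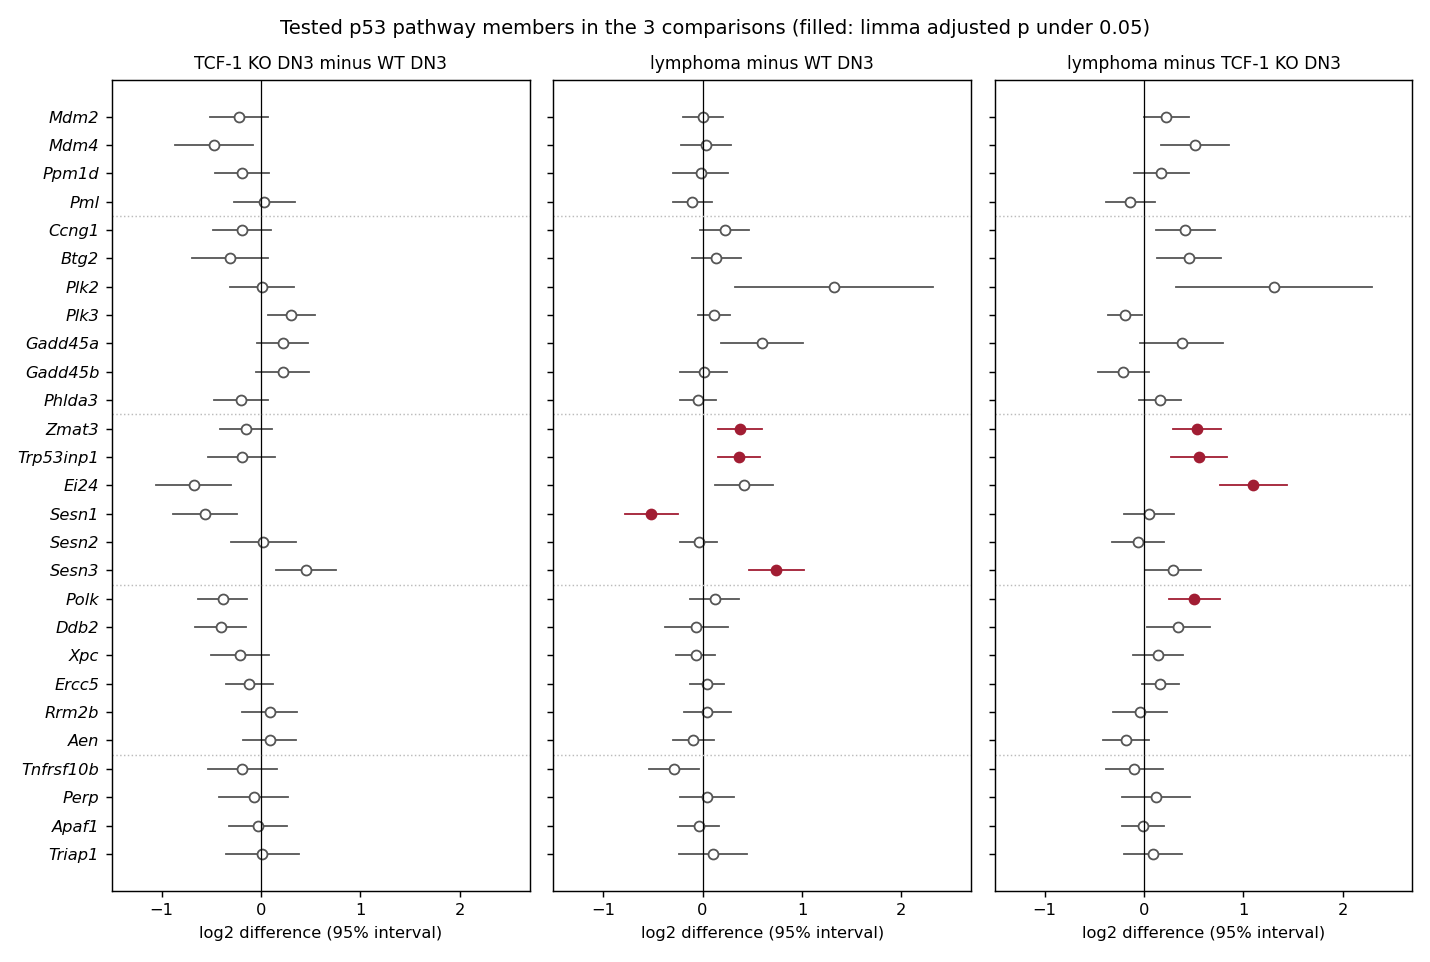
Each row is 1 of the 27 tested members, in groups by role, and the x axes give the log2 difference with its 95% interval in the 3 comparisons; filled points passed a limma adjusted p under 0.05. No point is filled between both DN3 groups, and Ei24 lies farthest right among the filled points, at 1.10 in lymphomas against TCF-1 KO DN3 cells.

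Among the controllers of p53, Mdm2 stood at 7.45, 7.21 and 7.22 on the wild-type DN3 arrays (log2 signal, replicates 1 to 3) and at 6.86, 7.22 and 7.12 on the TCF-1 KO DN3 arrays. Over the 6 lymphomas its lowest, median and highest signals were 7.17, 7.29 and 7.46. The tumours lay within the wild-type span apart from small excursions at both ends, and TCF-1 KO replicate 1 was the lowest of all arrays. The mean was 7.29 ± 0.14 (SD, n = 3) for wild-type DN3 cells, 7.07 ± 0.19 (SD, n = 3) for TCF-1 KO DN3 cells and 7.29 ± 0.11 (SD, n = 6) in lymphomas. Lymphomas differed from wild-type cells by 0.0037 on the log2 scale, with a 95% interval from -0.20 to 0.20 (limma adjusted p = 0.996), and the sign of so small a value flips when arrays are centred on their medians or quantile-normalised again. TCF-1 KO DN3 cells differed from wild-type cells by -0.22 (95% interval -0.51 to 0.07, limma adjusted p = 0.43). That value came to -0.59 within the smaller array set and -0.04 within the larger.

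Mdm4, which binds and silences p53 beside Mdm2, stood at 8.20, 8.47 and 8.41 on the wild-type arrays and at 7.62, 8.33 and 7.70 on the TCF-1 KO DN3 arrays. The lymphomas ran from 8.19 through a median of 8.32 to 8.64. TCF-1 KO replicates 1 and 3 lay below every other array, while replicate 2 lay among the wild-type and tumour arrays. The mean difference was -0.47 between TCF-1 KO and wild-type DN3 cells (SE 0.18, limma adjusted p = 0.221) and 0.51 between lymphomas and TCF-1 KO DN3 cells (SE 0.16, limma adjusted p = 0.0746). Without TCF-1 KO replicate 2 these became -0.69 (limma adjusted p = 0.0317; 2.34% of all genes were then called lower) and 0.73 (limma adjusted p = 0.0112; 5.67% were called higher). Lymphomas and wild-type cells differed by 0.04 (95% interval -0.22 to 0.29, limma adjusted p = 0.96).

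Ppm1d, a phosphatase that turns the p53 response off again, lay between 6.54 and 7.17 over all arrays, with lymphoma 4 the lowest. Pml, the scaffold of nuclear bodies in which p53 is modified, lay between 5.96 and 6.50, and lymphomas 4, 5 and 6 were below every DN3 array. Neither gene was called in any of the 3 comparisons.

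The targets that restrain the cell cycle held the member that varied most between tumours. Plk2, a polo-like kinase that p53 induces under stress, stood at 4.66, 4.51 and 4.27 on the wild-type DN3 arrays and at 4.72, 4.43 and 4.32 on the TCF-1 KO DN3 arrays, all below the brightness limit of 4.78. It entered the tests only through its signals in the lymphomas, so its difference is given as a description only. In lymphomas 1 to 6 it stood at 7.41, 5.17, 5.57, 6.37, 5.60 and 4.68. All tumours exceeded the wild-type arrays, lymphoma 6 by hardly any margin and still within the TCF-1 KO range, and lymphoma 1 stood highest. The mean was 1.32 log2 units above that of wild-type cells (SE 0.46) and was not called (limma adjusted p = 0.151), and no fold is given against so dim a signal. The SD over lymphomas was 0.97 (n = 6), at percentile 99.8 of all genes tested.

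Gadd45a, a stress sensor that halts the cell cycle and aids repair, showed a similar order of tumours. Its signal was 5.76 to 5.88 on wild-type arrays and 5.94 to 6.18 on TCF-1 KO DN3 arrays, and 6.84, 6.28, 6.53, 6.71, 6.48 and 5.76 in lymphomas 1 to 6. Lymphomas 1 to 5 lay above all DN3 arrays and lymphoma 6 lay at the wild-type level. The mean was 0.60 above wild-type cells (SE 0.19, 1.51-fold, limma adjusted p = 0.109). The likeness of the Plk2 and Gadd45a orders was seen in these values and is given as a description of 6 tumours.

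Plk2 and Gadd45a were the only 2 of 27 members with a range of at least 1 log2 unit over the lymphomas, against 4.44% of all genes tested, and without Plk2 there was 1 of 26. A range of at least 0.5 was seen in 10 of 27 members and 33.6% of all genes. Mdm2 spanned 0.29, and its SD over the tumours was at percentile 23.6. The median SD of the members was 0.10 over wild-type arrays, 0.17 over TCF-1 KO DN3 arrays and 0.17 over lymphomas, against 0.13, 0.16 and 0.15 over all genes tested.

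Plk3, another stress-induced polo-like kinase, was 4.90 to 5.01 in wild-type cells, 5.25 to 5.31 in TCF-1 KO DN3 cells and 5.03 to 5.16 in lymphomas. These 3 ranges do not overlap, with lymphomas in between, yet the differences were small: 0.30 for TCF-1 KO against wild-type DN3 cells (SE 0.11, limma adjusted p = 0.198) and -0.19 for lymphomas against TCF-1 KO DN3 cells (limma adjusted p = 0.158). Ccng1, a cyclin G that p53 raises in most tissues, was 7.96 to 8.01 on wild-type arrays and 7.52 to 7.92 on TCF-1 KO DN3 arrays. All lymphomas but lymphoma 2 lay above both, at 8.16 to 8.43, and lymphoma 2 lay among the TCF-1 KO arrays at 7.85. The mean was 0.42 above TCF-1 KO DN3 cells (SE 0.13, limma adjusted p = 0.0856).

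Btg2, an antiproliferative cofactor of mRNA decay, was 8.01 to 8.32 in wild-type cells and 8.18 to 8.56 in lymphomas, with TCF-1 KO DN3 replicate 1 the lowest array at 7.55. Its difference between lymphomas and TCF-1 KO DN3 cells was 0.45 (SE 0.15, limma adjusted p = 0.0865). Gadd45b, a stress sensor related to Gadd45a, and Phlda3, a repressor of Akt signalling, spanned 4.63 to 5.30 and 5.10 to 5.58 over all arrays and were not called. None of the 7 members of this role was called in any comparison. Of all genes, 1.99% were called for TCF-1 KO against wild-type DN3 cells. The shares were 5.82% and 6.62% for lymphomas against wild-type and TCF-1 KO DN3 cells. No call among 7 genes is near these shares.

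Several of these genes also respond to mitogens and to handling of cells as immediate-early genes do. Of 16 immediate-early genes, Zfp36 (1.49), Egr1 (0.92) and Ier2 (0.45) were called higher in lymphomas than in wild-type DN3 cells and Zfp36 (1.07) and Egr1 (0.79) higher than in TCF-1 KO DN3 cells (log2 differences). Jun was called lower in TCF-1 KO than in wild-type DN3 cells, by -0.88. Their part in the values of Plk2, Gadd45a and Btg2 was not tested.

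**Figure D2:**
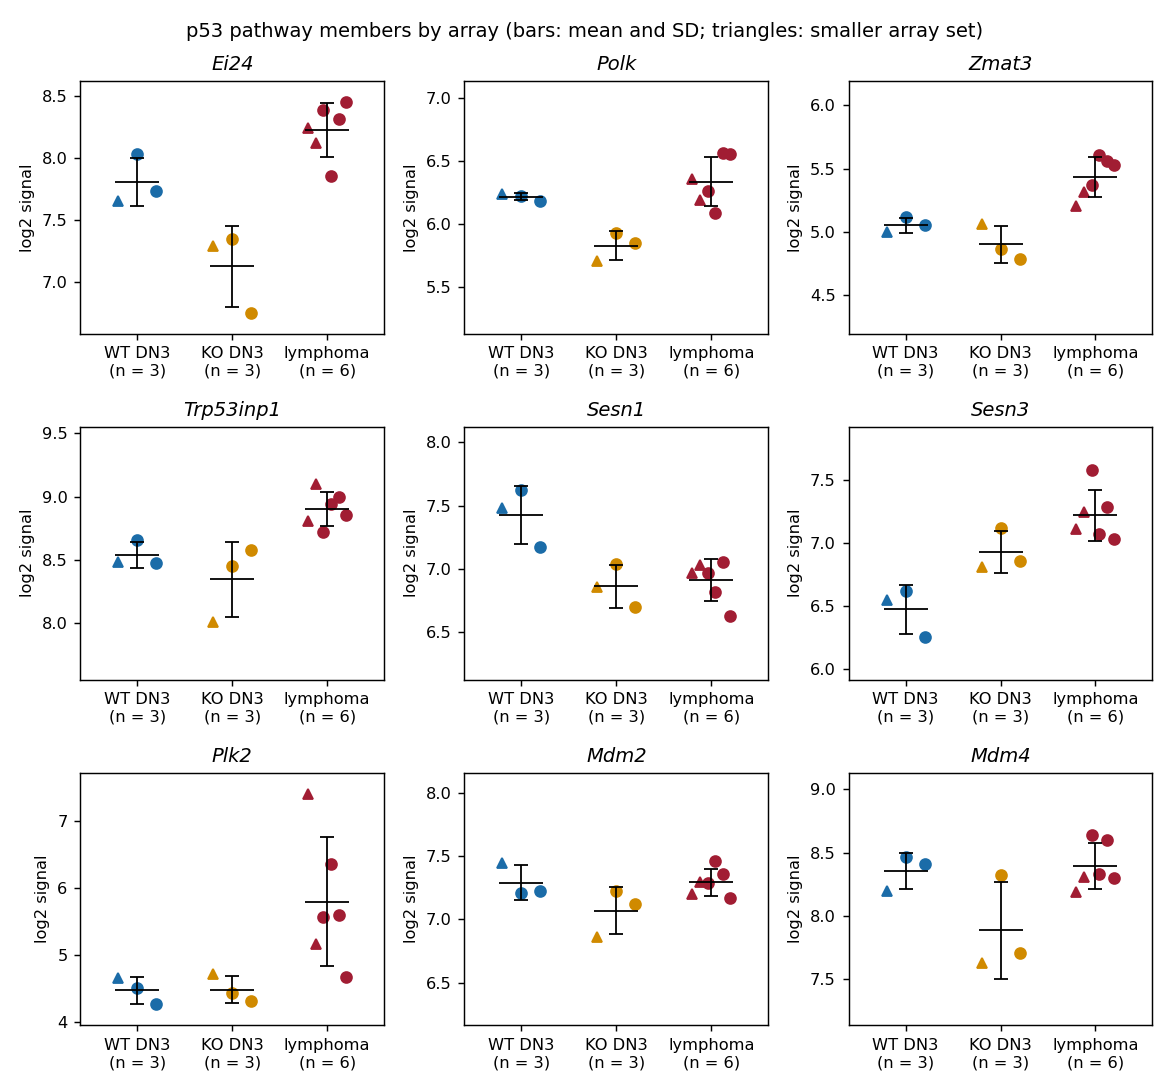
Log2 signals of 9 members are plotted by group, 1 point an array, with the mean and SD as bars and triangles for the smaller array set. Ei24, Zmat3 and Trp53inp1 have all 6 lymphomas above all 3 TCF-1 KO DN3 arrays, and Plk2 spreads from 4.68 to 7.41 among the lymphomas.

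Of the 6 stress and autophagy targets, 3 were called higher and 1 lower in lymphomas than in wild-type cells. Among all genes these shares were 2.96% and 2.86%. Against TCF-1 KO DN3 cells 3 of the 6 were called higher, beside 4.5% of all genes. Members and lists were chosen with earlier results of these data known. Ei24, an endoplasmic reticulum protein needed for autophagy, stood at 7.65, 8.03 and 7.73 on the wild-type arrays and at 7.29, 7.34 and 6.75 on the TCF-1 KO DN3 arrays. The lymphomas ran from 7.85 through a median of 8.28 to 8.45. TCF-1 KO arrays were below all others, and 5 of the 6 tumours were above all DN3 arrays, lymphoma 4 being the exception. Lymphomas exceeded TCF-1 KO DN3 cells by 1.10 (SE 0.16, 95% interval 0.76 to 1.44, 2.14-fold, limma adjusted p = 0.00166). Within the smaller and larger array sets this difference was 0.90 and 1.20. It was called in 20 of 20 alternative analyses, with adjusted p up to 0.018.

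Against wild-type DN3 cells, Ei24 was 0.42 higher in lymphomas (SE 0.13, limma adjusted p = 0.109), and without lymphoma 4 it was 0.50 higher and called (limma adjusted p = 0.0217). TCF-1 KO and wild-type DN3 cells differed by -0.68 (SE 0.17, limma adjusted p = 0.0767). The decamer printed above in its promoter lies directly before the gene start.

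Zmat3, a zinc finger protein that binds RNA and regulates splicing, stood at 4.99, 5.11 and 5.05 on the wild-type arrays and at 5.06, 4.86 and 4.78 on the TCF-1 KO DN3 arrays. In the lymphomas it ran from 5.21 through a median of 5.45 to 5.60. All 6 tumours lay above all 6 DN3 arrays. The DN3 signals, 4.78 to 5.11, lay near the brightness limit of 4.78, so the folds may be understated. The difference was 0.38 from wild-type cells (SE 0.10, 1.30-fold, limma adjusted p = 0.0483) and 0.53 from TCF-1 KO DN3 cells (SE 0.11, 1.44-fold, limma adjusted p = 0.015). Within the smaller and larger array sets it was 0.27 and 0.43 from wild-type cells and 0.20 and 0.70 from TCF-1 KO DN3 cells. The call against wild-type cells was lost on leaving out any array but lymphoma 1 (limma adjusted p from 0.0532 to 0.191). That against TCF-1 KO cells was lost without TCF-1 KO replicate 3 (0.0886) or with the replicate number as a block (0.116). The block fit compares only lymphomas 1 to 3 with the DN3 arrays of their number.

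Trp53inp1, a nuclear body protein that promotes the activity of p53 and autophagy, stood at 8.48, 8.66 and 8.48 on the wild-type arrays and at 8.01, 8.45 and 8.58 on the TCF-1 KO DN3 arrays. The tumours ran from 8.72 through a median of 8.90 to 9.10. Here too each tumour was above each DN3 array. The difference was 0.36 from wild-type cells (SE 0.10, 1.29-fold, limma adjusted p = 0.0475) and 0.56 from TCF-1 KO DN3 cells (SE 0.13, 1.47-fold, limma adjusted p = 0.0251). Within the smaller and larger array sets it was 0.47 and 0.31 from wild-type cells and 0.94 and 0.36 from TCF-1 KO cells. The call against wild-type cells was lost without any 1 of the wild-type arrays or without lymphoma 2, 4, 5 or 6 (limma adjusted p from 0.0665 to 0.196), and that against TCF-1 KO cells without TCF-1 KO replicate 1 (0.0996), lymphoma 2 (0.0501) or lymphoma 5 (0.0514) after repeated quantile normalisation (0.104), in the larger array set alone (0.159) or with the replicate block (0.0725). Against wild-type cells Zmat3 was called in 7 of 19 alternative analyses and Trp53inp1 in 5 of 20, so both calls sit at the threshold.

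Of the sestrins, which restrain mTORC1 and oxidative stress, Sesn1 was lower and Sesn3 higher in lymphomas than in wild-type cells. Sesn1 stood at 7.48, 7.62 and 7.17 on the wild-type arrays and at 6.85, 7.04 and 6.70 on the TCF-1 KO DN3 arrays. The lymphomas ran from 6.62 through a median of 6.97 to 7.06. Wild-type arrays were the 3 highest of all, and TCF-1 KO cells and tumours overlapped. Lymphomas were lower than wild-type cells by -0.52 (SE 0.12, 1.43-fold, limma adjusted p = 0.0259), and by -0.49 and -0.53 within the smaller and larger array sets. This call was lost without wild-type replicate 1 (limma adjusted p = 0.121) or 2 (0.158), with Xist class as a term (0.079) and in the larger array set alone (0.14). TCF-1 KO DN3 cells differed from wild-type cells by -0.57 (SE 0.15, limma adjusted p = 0.0842).

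Sesn3 stood at 6.55, 6.62 and 6.26 on the wild-type arrays and at 6.81, 7.12 and 6.86 on the TCF-1 KO DN3 arrays. The lymphomas ran from 7.03 through a median of 7.17 to 7.58. Wild-type arrays were the 3 lowest, and the tumours overlapped with TCF-1 KO replicate 2. Lymphomas exceeded wild-type cells by 0.74 (SE 0.13, 95% interval 0.46 to 1.02, 1.67-fold, limma adjusted p = 0.0037), and by 0.63 and 0.80 within the smaller and larger array sets. That call held in 20 of 20 alternative analyses, with adjusted p up to 0.0346. TCF-1 KO and wild-type DN3 cells differed by 0.45 (SE 0.14, limma adjusted p = 0.139), and lymphomas and TCF-1 KO cells by 0.29 (SE 0.13, limma adjusted p = 0.186). Sesn2, the third sestrin, stood between 4.62 and 5.17 on all arrays, with a difference of -0.04 between lymphomas and wild-type cells (95% interval -0.22 to 0.15).

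Polk, 1 of 6 tested repair genes, was called in lymphomas against TCF-1 KO DN3 cells, where 6.62% of all genes were. It encodes a DNA polymerase that copies past damaged bases. Its signal was 6.24, 6.22 and 6.18 on the wild-type arrays and 5.70, 5.93 and 5.85 on the TCF-1 KO DN3 arrays, and the lymphomas ran from 6.09 through a median of 6.31 to 6.56. TCF-1 KO arrays were the 3 lowest of all, and tumours overlapped with wild-type cells. Lymphomas exceeded TCF-1 KO DN3 cells by 0.51 (SE 0.12, 1.42-fold, limma adjusted p = 0.0264), and by 0.57 and 0.48 within the smaller and larger array sets. The call was lost without TCF-1 KO replicate 1 (0.109) or 3 (0.0943) and in the larger array set alone (0.152). TCF-1 KO and wild-type DN3 cells differed by -0.39 (SE 0.11, limma adjusted p = 0.123).

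Ddb2, which recognises ultraviolet lesions in chromatin, was 7.30 to 7.50 in wild-type cells and 6.89 to 7.06 in TCF-1 KO DN3 cells, without overlap (difference -0.41, SE 0.12, limma adjusted p = 0.111). Its tumours split: lymphomas 1, 2 and 6 stood at 7.55, 7.66 and 7.50, and lymphomas 3, 4 and 5 at 7.04, 7.06 and 7.18. The higher 3 are the tumours low in Xist, and the lower 3 those high in it, while TCF-1 KO replicate 3, also low in Xist, stood at 7.06. The part of sex in this split was not tested.

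Xpc and Ercc5, which recognise and cut damaged strands in nucleotide excision repair, lay between 5.15 and 5.75 and between 6.85 and 7.18 over all arrays. Rrm2b, a ribonucleotide reductase subunit that supplies nucleotides for repair, lay between 6.57 and 7.06, and Aen, an exonuclease of apoptotic cells, between 5.21 and 5.73. None of these 4 was called in any comparison.

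The 4 tested death genes gave no call, which is near the shares over all genes. These were 1.99% between both DN3 groups, and 5.82% and 6.62% for lymphomas against wild-type and TCF-1 KO DN3 cells. Apaf1, the core of the apoptosome, lay between 6.39 and 6.78, and Perp, a membrane protein that p53 induces in dying cells, between 4.69 and 5.56. Triap1, an inhibitor of the apoptosome, lay between 6.14 and 6.86, highest in lymphoma 1. Its signals followed the array sets. The smaller set stood at 6.71 (wild-type replicate 1), 6.53 (TCF-1 KO replicate 1), 6.86 and 6.49 (lymphomas 1 and 2). Every array of the larger set was lower, at 6.41 or less, and the part of the array set was not tested. The TRAIL death receptor gene Tnfrsf10b lay between 4.65 and 5.38 and was 0.29 lower on average in lymphomas than in wild-type cells (difference -0.29, SE 0.11, limma adjusted p = 0.23). The death receptor genes Fas and Eda2r stayed between 4.38 and 4.77 and between 4.57 and 4.93 on all arrays, and were not tested.

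**Figure D3:**
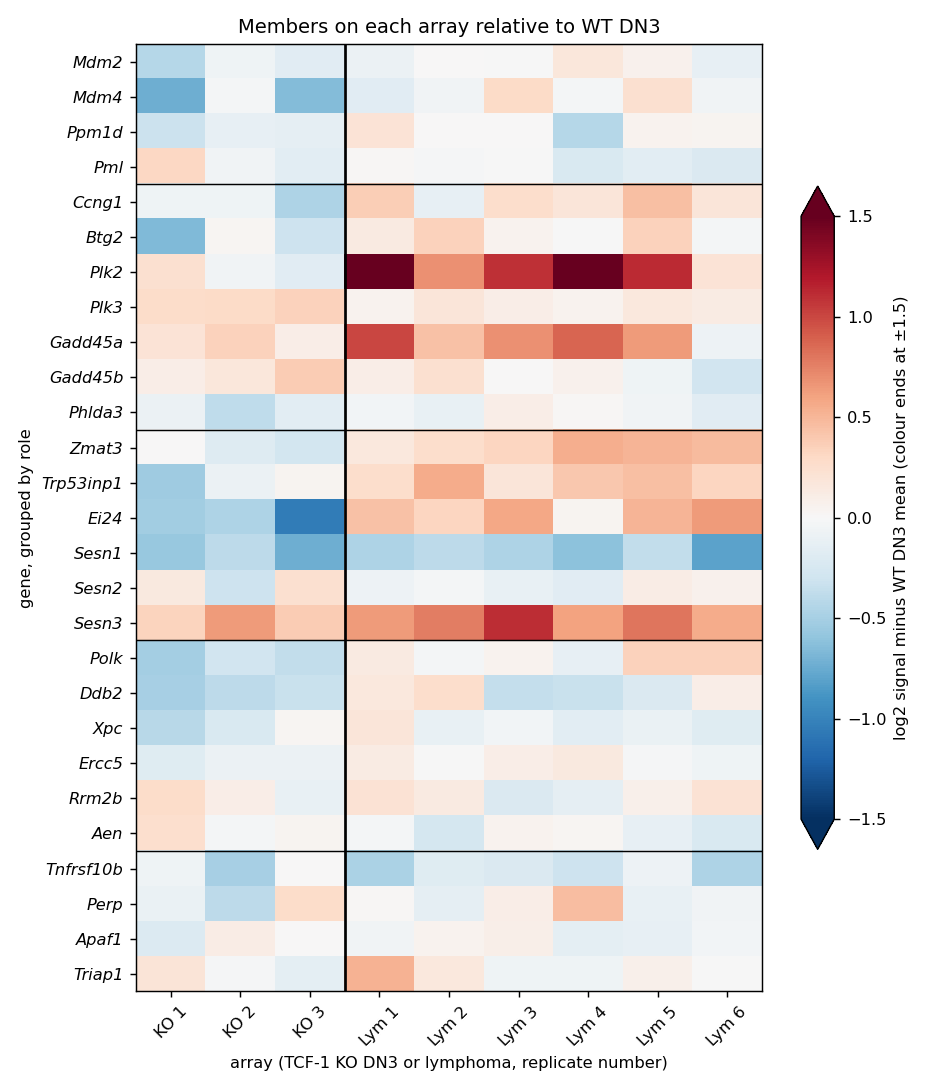
Each cell gives a member's log2 signal on 1 TCF-1 KO DN3 or lymphoma array minus the mean of the wild-type DN3 arrays, with genes grouped by role and colour ending at 1.5 in either direction. Plk2 and Gadd45a are strongest in lymphoma 1 and near the wild-type level in lymphoma 6, and Ei24 is lower on all 3 TCF-1 KO arrays and higher on all 6 lymphomas.

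Counted over the tested members, TCF-1 KO against wild-type DN3 cells gave no call by limma among 27, where 1.99% of all genes tested (298) were called, 0.568% higher and 1.42% lower. At an unadjusted p under 0.05 there were 7 of 27 members (Mdm4, Plk3, Ei24, Sesn1, Sesn3, Polk and Ddb2), against 16.3% of all genes. The arrays of both groups did not overlap for 11 of 27 members, against 22.0% of all genes: 7 were lower without TCF-1 (Ppm1d, Ccng1, Ei24, Sesn1, Polk, Ddb2 and Ercc5; 11.6% of all genes) and 4 higher (Plk3, Gadd45a, Gadd45b and Sesn3; 10.4%). The difference was below 0 for 17 of 27 members and 44.7% of all genes, and for 21 and 18 members when arrays were centred or quantile-normalised again, against 53.6% and 47.8% of all genes. The median difference was -0.15 over members and 0.03 over all genes tested.

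Same-numbered arrays of both DN3 groups deviated together, and a fit with the number as a block called 6 of 27 members, against 9.23% of all genes. Ei24 (limma adjusted p = 0.00581), Sesn1 (0.00568), Mdm4 (0.0319), Ddb2 (0.0386) and Polk (0.0398) were lower without TCF-1, beside 6.35% of all genes called lower, and Sesn3 (0.0226) was higher, beside 2.88%. With the array set as a term instead, Ei24 (0.0333) and Sesn1 (0.0382) were called lower, beside 3.52% of all genes (1.52% were called higher and 5.04% in all).

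Lymphomas against wild-type DN3 cells gave 4 of 27 members called, 3 higher and 1 lower, against 5.82% of all genes (2.96% higher and 2.86% lower). The arrays did not overlap for 6 members, against 10.3% of all genes: Plk2, Plk3, Zmat3, Trp53inp1 and Sesn3 were higher (5.28% of all genes) and Sesn1 lower (5.04%). Without Plk2, which is dim in DN3 cells, the count was 5 of 26. At an unadjusted p under 0.05 there were 8 of 27 members (7 of 26 without Plk2), against 15.5% of all genes. The difference was above 0 for 17 of 27 members, against 48.3% of all genes, and for 15 and 16 under centring and repeated quantile normalisation, or 16 of 26 as deposited without Plk2. The median difference was 0.05 over members and -0.01 over all genes. Leaving out a wild-type array lowered the count of called members to 1 (replicate 1 or 2) or 2 (replicate 3), with 564, 560 and 570 genes called in all, and leaving out lymphoma 2 or 5 lowered it to 2, with 794 and 773 genes. Sesn3 was in each of these counts.

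Lymphomas against TCF-1 KO DN3 cells gave 4 of 27 members called, all higher, against 6.62% of all genes (4.5% higher and 2.12% lower). The arrays did not overlap for 6 members, against 13.6% of all genes: Zmat3, Trp53inp1, Ei24, Polk and Ercc5 were higher (7.34% of all genes) and Plk3 lower (6.23%). At an unadjusted p under 0.05 there were 12 of 27 members (11 of 26 without Plk2), against 24.7% of all genes. The difference was above 0 for 19 of 27 members (18 of 26 without Plk2), against 43.5% of all genes. Under centring and repeated quantile normalisation it was above 0 for 20 and 19 of 27 members (49.8% and 46.7% of all genes). The median difference was 0.16 over members and -0.03 over all genes. The count was 2 without TCF-1 KO replicate 1 or 3, where 457 and 431 genes were called in all, and 6 without replicate 2, where 1361 were, against 990 with all arrays.

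Each lymphoma was also set against the range of the 6 DN3 arrays. Lymphoma 1 had 13 of 27 members above that range, against 20.3% of all genes tested, and none below it, against 19.3%. Lymphoma 3 had 11 above (15.1% of all genes) and Rrm2b below (16.9%). Lymphoma 5 had 10 above (14.3%), with Pml and Aen below (15.0%). Lymphomas 2 and 4 had 8 each above (15.6% and 15.4%), with Aen below in lymphoma 2 (16.0%) and Ppm1d, Pml and Rrm2b below in lymphoma 4 (17.9%). Lymphoma 6 had the fewest above, 5 (16.5%), and the most below, 4 (19.6%): Pml, Gadd45b, Sesn1 and Aen. Zmat3 and Trp53inp1 were above the DN3 range in all 6 tumours. Without Plk2 the numbers above were 12, 7, 10, 7, 9 and 5 of 26 in lymphomas 1 to 6.

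Against the wild-type arrays alone, the number of members above all 3 was 17, 11, 13, 11, 13 and 9 in lymphomas 1 to 6, where 30.7%, 28.0%, 26.8%, 28.6%, 27.0% and 26.1% of all genes were. The number below all 3 was 5, 7, 6, 10, 7 and 10, against 30.5%, 27.9%, 29.2%, 31.5%, 27.7% and 30.1%. Lymphoma 1 had the most members above and lymphoma 6 the fewest. Leaving out Plk2, 16, 10, 12, 10, 12 and 8 of 26 members were above all 3 wild-type arrays. The median difference of the members from the wild-type mean lay between -0.03 in lymphoma 6 and 0.13 in lymphoma 1.

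**Figure D4:**
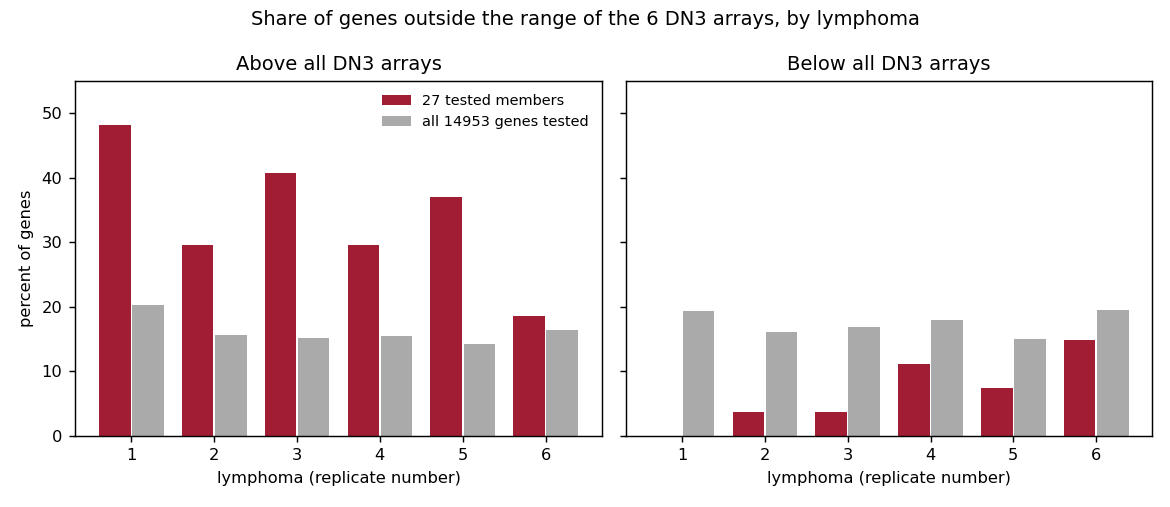
Bars give, for each lymphoma, the percent of the 27 tested members (red) and of all 14953 genes tested (grey) that lay above all 6 DN3 arrays (left) or below all of them (right). The share above reaches 48.1% of members in lymphoma 1 and 18.5% in lymphoma 6, and the share below is 0.0% and 14.8% in the same tumours.

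Other genes of the pathway were read from further lists. Of 19 tested activators and upstream kinases of p53, none was called between both DN3 groups, where 17 of 19 differences were below 0 (15 of 19 after repeated quantile normalisation) with a median of -0.25, against 44.7% of all genes below 0 (47.8% after that normalisation). In lymphomas against TCF-1 KO DN3 cells 15 of 19 were above 0, against 43.5% of all genes, and Usp10, a deubiquitinase that stabilises p53, was called higher (0.44, limma adjusted p = 0.0446). Atm, the kinase that senses DNA breaks, differed by -0.35 between both DN3 groups and by 0.33 between lymphomas and TCF-1 KO DN3 cells (limma adjusted p = 0.221 and 0.118). It was named after its values were seen. Cdkn2a, whose Arf product blocks Mdm2 and which is often silenced or lost in T cell lymphoma, was not called, with differences of 0.14, 0.11 and -0.04 in the 3 comparisons (TCF-1 KO against wild-type, lymphoma against wild-type, lymphoma against TCF-1 KO). These values are per gene and were not read for Arf alone. Its lymphoma signals lay near the median signals of the arrays, which limits what a loss could show. Of 15 other negative regulators, the ubiquitin ligase gene Mkrn1 was called higher in lymphomas than in wild-type (0.47, limma adjusted p = 0.0105) and TCF-1 KO DN3 cells (0.38, 0.0472), and the other 14 were not called.

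A further list held 17 tested genes outside the 30, named as cell death targets. It included Noxa1, which is a different gene from that of Noxa (Pmaip1). Shisa5, an endoplasmic reticulum inducer of apoptosis, was called higher in lymphomas than in wild-type (0.62, limma adjusted p = 0.00126) and TCF-1 KO DN3 cells (0.53, 0.00462). The initiator caspase gene Casp8 was called higher than in wild-type cells (0.59, 0.00333) and Dapk1, a death-associated kinase, lower (-0.53, 0.0211). Bnip3l, a mitophagy receptor, was called higher than in TCF-1 KO DN3 cells (0.70, 0.012). The BH3-only genes Bbc3 and Pmaip1, which encode Puma and Noxa, were not called, with differences of 0.10, 0.11 and 0.01 for Bbc3 and 0.31, 0.38 and 0.07 for Pmaip1 in the order above.

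Of 21 tested targets of cell cycle and metabolism, Ddit4, a stress inhibitor of mTORC1, was called higher in lymphomas than in wild-type (0.48, limma adjusted p = 0.0225) and TCF-1 KO DN3 cells (0.46, 0.0128). Psrc1, a spindle protein, was called higher than in TCF-1 KO DN3 cells (0.63, 0.029) and Cyfip2, a regulator of actin, lower than in wild-type cells (-0.54, 0.0139). Ccnd2, a cyclin that drives entry into the cell cycle rather than arrest, was called lower in all 3 comparisons (-0.72, -1.72 and -0.99). The p53 relatives Trp63 and Trp73 were not called. Cdkn1a and Bax were not analysed here.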

How the data were processed

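RNA of sorted cells was amplified with a pico-scale kit and hybridised to Affymetrix Mouse Gene arrays, per the labels' protocols. The deposited values are log2 signals per transcript cluster. The authors used Partek and RMA to make them, as the submitters' processing notes list. No source used here gives versions, and base 2 is read from the range of the values. RMA gives all arrays nearly 1 distribution, so differences are relative to the other genes, and signals near background understate folds.

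Of 35556 rows, 21789 had 1 gene symbol in the platform annotation, and 21698 of these were found in RefSeq (GRCm38.p6). The row with the highest mean stood for each of 19938 genes, and 4985 genes under the 25th percentile of the means (log2 4.78) were left out. Each comparison was fitted on its 2 groups with limma 3.58.1 (lmFit, eBayes) in R 4.3.3, two-sided, with Benjamini-Hochberg adjustment over 14953 genes. The fit was tested on simulated arrays with independent noise. These held neither the array sets nor the shared deviations of same-numbered arrays, so the simulation cannot speak to either. The members and lists were chosen with earlier results of these data known. Named in full were Mdm2, Mdm4, members called in any comparison, and members whose arrays did not overlap with a difference of at least 0.5. From the other lists, called genes and Cdkn1a, Bax, Bbc3, Pmaip1 and Cdkn2a were named. Neighbours of Trp53 were not analysed here.

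Replicates are labelled biological, but how the mice were related is not stated, so a p-value reflects only how much these samples spread, which may be technical. Same-numbered wild-type and TCF-1 KO DN3 arrays correlated at 0.25 to 0.51 in their deviations from the group means and crossed ones at -0.41 to 0.06. The first pair also shares the smaller array set. Lymphomas did not pair with DN3 arrays of their number. Same-numbered ones correlated at -0.22 to 0.44 with wild-type and -0.26 to 0.38 with TCF-1 KO DN3 arrays. Crossed ones reached as high, at -0.34 to 0.45 and -0.27 to 0.38. In the fit with the number as a block, lymphomas 4 to 6 each formed a block of 1 array. Only lymphomas 1 to 3 thus entered the differences of that fit. Array sets were found from unnamed rows with a gap of at least 1 log2 unit between groups of arrays (34 rows, against 26 for the next grouping).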

Additional observations from a re-analysis of the deposited data

Results flagged for a closer look

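Of 42 genes searched over the 6 lymphomas, 4 had a sample far from the others (Dixon's test), which chance gives in about 1 in 20 groups. Ppm1d was lowest in lymphoma 4, at a log2 signal of 6.54. Triap1 was highest in lymphoma 1, at 6.86. That tumour belongs to the smaller array set, whose arrays all exceeded the larger set for Triap1. Bbc3, which encodes Puma, was lowest in lymphoma 6, at 5.29, against 5.38 to 5.42 in the other 5. Cdkn2a was lowest in lymphoma 2, at 5.02, against 5.33 to 5.48 in the other 5.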

How the results depend on the processing

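Of 507 alternative values for 27 results on single members, 431 kept their direction and side of the threshold, 44 lost the call, 15 gained it and 17 changed sign, all of these uncalled values near 0. For TCF-1 KO against wild-type DN3 cells (298 genes, no member), the replicate block called 1380 genes and 6 members, the array set as a term 754 and 2, the larger array set alone 144 genes and Xist class as a term 126. Leaving out 1 array gave 57 to 443 genes and 0 to 1 member, and repeated quantile normalisation changed the split of 85 higher and 213 lower to 93 and 146. For lymphomas against wild-type cells (871 genes, 4 members), the larger set alone called 549 genes and 1 member, and 2 members were called with Xist class as a term (866 genes), with centred arrays (832) and without a filter (856). Leaving out 1 array gave 560 to 872 genes and 1 to 4 members. For lymphomas against TCF-1 KO cells (990 genes, 4 members), the array set as a term called 1702 genes, the larger set alone 325 genes and 2 members, and the replicate block 999 genes and 2 members. Leaving out 1 array gave 431 to 1361 genes and 2 to 6 members. The larger set alone holds fewer arrays. In both lymphoma comparisons the replicate block leaves lymphomas 4 to 6 as blocks of 1 array each. Its differences there thus rest on lymphomas 1 to 3 alone. Otherwise the cause was not tested. The numbers do not pair lymphomas; with them as a replicate block, Gadd45a (limma adjusted p = 0.0181) and Plk2 were called higher than in wild-type cells and Plk2 than in TCF-1 KO cells, Plk2 having passed the filter only through the lymphomas. The calls of Sesn1 (0.0746), Zmat3 (0.247) and Trp53inp1 (0.113) against wild-type cells and of Zmat3 (0.116), Trp53inp1 (0.0725) and Polk (0.0789) against TCF-1 KO cells were lost. Plk2 between both DN3 groups turned to -0.014 in the larger set alone, -0.036 with centring and -0.064 with repeated quantile normalisation, and ran from -0.11 to 0.10 without 1 array. Mdm2 in lymphomas against wild-type cells turned to -0.030 with the block, -0.0076 with centring and -0.0043 with quantile normalisation, and ran from -0.039 to 0.082 without 1 array, as Mdm4 did from -0.045 to 0.090. Sesn1 in lymphomas against TCF-1 KO cells turned to -0.053 with quantile normalisation and ran from -0.034 to 0.14 without 1 array. Dim members such as Plk2, Fas and Eda2r, and Zmat3 in DN3 cells, lie near background, which limits what the arrays can show for them.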
